A study of Mus musculus with 8 samples.

Results

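Transcripts of 7 inhibitory receptors and of the transcription factor Tox were followed in T cells from the kidney and spleen of lupus-prone mice. The 8 genes, Pdcd1, Tigit, Ctla4, Havcr2, Lag3, Cd160, Cd200r1 and Tox, were taken by name from a table of 13341 genes, and all 8 had values. Every animal was a 14-week-old MRL/lpr mouse, a strain with the lpr mutation of the death receptor gene Fas that develops a lupus-like nephritis. Cells that were CD4+ or CD8+ and high for CD44, a surface mark of antigen experience, were sorted from each organ, which gave 4 groups: kidney CD8+, spleen CD8+, kidney CD4+ and spleen CD4+. Each group had 2 RNA-seq libraries, and the labels do not say whether these came from separate animals, so p-values measure only the spread between libraries. All groups carried the lpr mutation, and no wild-type cells were among them.

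Inhibitory receptors sit on the T cell surface and dampen signals from the antigen receptor when they meet their ligands on other cells. Many are induced by activation itself, and several are kept high together in the exhausted state that CD8+ T cells reach under lasting antigen in chronic infection and tumours. Tox, a DNA-binding protein of the high mobility group family, is needed in mouse CD8+ T cells for that state, and in the thymus for the development of CD4+ T cells. Regulatory T cells also carry Ctla4 and Tigit at high levels, and follicular helper T cells carry Pdcd1.

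The promoters of the 4 receptors below are shown because their transcripts were higher in both kidney CD8+ libraries than in both spleen CD8+ libraries. Each sequence is the 250 bases before the RefSeq transcription start, 5′ to 3′ on the gene's strand, in build GRCm38.p6, which is not the mm9 build of the deposited table. Capitals mark GGAAA on either strand (read as TTTCC on the other), the core bound by NFAT factors downstream of the antigen receptor, and TGANTCA, the site of AP-1 factors.
Pdcd1: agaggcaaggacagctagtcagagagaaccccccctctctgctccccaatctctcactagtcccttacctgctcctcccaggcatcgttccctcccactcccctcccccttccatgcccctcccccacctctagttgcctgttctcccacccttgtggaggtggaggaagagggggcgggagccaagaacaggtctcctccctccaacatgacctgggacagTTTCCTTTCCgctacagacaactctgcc
Tigit: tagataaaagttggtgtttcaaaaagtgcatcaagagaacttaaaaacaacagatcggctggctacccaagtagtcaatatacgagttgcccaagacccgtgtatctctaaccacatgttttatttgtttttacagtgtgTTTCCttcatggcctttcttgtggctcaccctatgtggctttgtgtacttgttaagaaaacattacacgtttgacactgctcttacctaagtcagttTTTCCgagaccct
Ctla4: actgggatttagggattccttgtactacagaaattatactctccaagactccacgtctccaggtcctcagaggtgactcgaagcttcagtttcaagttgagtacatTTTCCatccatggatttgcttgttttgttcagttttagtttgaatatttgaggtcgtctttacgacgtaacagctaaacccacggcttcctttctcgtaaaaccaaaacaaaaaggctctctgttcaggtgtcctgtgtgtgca
Havcr2: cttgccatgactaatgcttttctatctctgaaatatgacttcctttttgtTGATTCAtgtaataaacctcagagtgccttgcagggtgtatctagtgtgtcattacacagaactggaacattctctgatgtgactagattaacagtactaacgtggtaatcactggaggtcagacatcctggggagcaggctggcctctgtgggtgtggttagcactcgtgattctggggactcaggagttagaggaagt
These windows are chr1:94052554-94052803 (minus strand), chr16:43664185-43664434 (minus strand), chr1:60908775-60909024 (plus strand) and chr11:46454681-46454930 (plus strand). Pdcd1 and Tigit held 2 GGAAA matches each, Ctla4 held 1, and Havcr2 held 0 GGAAA and 1 TGANTCA match, with no matches overlapping. GGAAA was present in 55.6% and TGANTCA in 6.75% of all 32851 promoters of the same length, so the first is common. Cd160 had 2 listed starts with 0 and 1 GGAAA matches and 0 TGANTCA matches at each. Of the 8 genes 5 had an entry, and Cd200r1 had none.

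In mm9 coordinates, Pdcd1 (PD-1) lies at chr1:95934884-95949130 on the minus strand, Ctla4 at chr1:60943844-60972676 on the plus strand and Tigit at chr16:43648974-43664297 on the minus strand. Cd200r1 is on the same chromosome as Tigit, at chr16:44765849-44795091 on the plus strand. Havcr2 (TIM-3) lies at chr11:46268437-46294757 on the plus strand, Lag3 at chr6:124854379-124861723 on the minus strand and Tox at chr4:6613500-6918704 on the minus strand. Cd160, at chr3:96602686-96633274 on the minus strand, overlaps Pdzk1 on the plus strand by 68 exonic bases. Tox shares 260 exonic bases with Gm11802 on the other strand, which was not analysed here, and the library kit keeps no strand, so reads of such partners cannot be told apart. Cd200r1 has close paralogs, and its level is uncertain where reads were split among them.

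The libraries held 7477544 to 11169003 reads, and 1 read was worth 0.554 to 1.04 units of the deposited normalised level, in which all levels below are given. Of the 13341 genes, 10845 reached a level of 10 in at least 2 libraries and were tested, all 8 genes among them. The kidney CD4+ libraries stood apart from each other. Over 4691 genes with a mean level of at least 100, the replicate difference on the log2 scale had an SD of 1.56 there, against 0.650 in kidney CD8+, 0.435 in spleen CD8+ and 0.452 in spleen CD4+ cells. The 11 T cell core markers summed to between 90745 and 130609 in every library, but single markers differed in opposite directions within the kidney CD4+ pair. In replicates 1 and 2 Cd3e read 5456 and 637, Lck 24569 and 2813 and Lat 5507 and 1964, while Cd3d read 10077 and 26729. Genes of the proximal tubule of the kidney, 11 in the list, summed to 6744 and 26664 in kidney CD8+ and 9576 and 21254 in kidney CD4+ cells, against 0 and 4.77 in spleen CD8+ and 8.87 and 0.863 in spleen CD4+ cells. Neutrophil markers, 8 in the list, summed to 0 and 2.31 in kidney CD8+ and 28.9 and 2.08 in kidney CD4+ cells, against 3387 and 6101 in spleen CD8+ and 5411 and 8827 in spleen CD4+ cells. Erythroid genes also differed by organ, with sums of 7.75 to 200 in the kidney libraries and 6614 to 11553 in the spleen libraries. B cell markers summed to 182 to 247 in the kidney libraries and 393 to 989 in the spleen libraries. The part of these other cells in the results below was not tested.

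Kidney CD8+ cells had higher levels of 6 of the 7 receptors than spleen CD8+ cells, without overlap between the libraries, lower levels of Lag3, and about the same level of Tox. Higher levels without overlap were found for 26.7% of all tested genes and lower levels without overlap for 24.4%. The median fold change of the 8 genes was 1.33 on the log2 scale, beside 0 over all tested genes. In the limma test over all 8 libraries, none of the 8 differences passed an adjusted p of 0.05, which 1.55% of all genes did. With the compared libraries alone 3 of the 8 passed (1.65% of all genes), with the unlike kidney CD4+ pair left out 5 passed (6.87%), with DESeq2 1 passed (4.48%) and with edgeR 0 passed (0.913%). At an unadjusted p below 0.05 in the fit over all libraries there were 3, Tigit, Ctla4 and Cd200r1, beside 10.6% of all genes. Whether a sample holds more cells that carry a transcript or more transcript per cell cannot be told apart in bulk RNA.

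Pdcd1 encodes PD-1, which recruits the phosphatase SHP-2 to the antigen receptor and its co-receptor CD28. Its level was 5022 and 4567 in kidney CD8+ cells and 906 and 1011 in spleen CD8+ cells. Both kidney CD8+ libraries lay above both spleen CD8+ libraries. The log2 fold change was 2.32 ± 1.08 (SE, n = 2 each), with an adjusted p of 0.507 by limma. The same difference had an SE of 0.13 and an adjusted p of 0.0182 with the compared libraries alone, and over the 21 alternatives the limma, edgeR and DESeq2 adjusted p ran between 1.80e-04 and 1.

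Tigit encodes a receptor that competes with the activating receptor CD226 for ligands of the nectin family. It read 5605 and 5229 in kidney CD8+ cells and 1807 and 1887 in spleen CD8+ cells, again without overlap. The log2 fold change was 1.55 ± 0.62 (SE), 2.93-fold, with an adjusted p of 0.410 by limma. It was 0.0232 with the compared libraries alone, within a range of 5.52e-04 to 1 over the 21 alternatives.

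Ctla4 encodes a receptor that outcompetes CD28 for CD80 and CD86. Levels were 1020 and 944 in kidney CD8+ cells and 333 and 298 in spleen CD8+ cells. Both kidney libraries were higher, by 1.64 ± 0.57 (SE) on the log2 scale, 3.11-fold, with an adjusted p of 0.308 by limma. With the compared libraries alone it was 0.0311, and its range over the 21 alternatives was 0.00101 to 1.

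Cd200r1 encodes the receptor for CD200, best known as a brake on myeloid cells. It was low in CD8+ cells, at 73.8 and 60.1 in kidney and 7.41 and 5.73 in spleen. The spleen values stand for 11 and 6 reads. Its log2 fold change of 3.17 ± 0.67 (SE), 8.99-fold, was the largest of the 8 genes, with an adjusted p of 0.0681 by limma and a range of 5.23e-04 to 0.447 over the 21 alternatives. It passed in 6 of these, with DESeq2, with median-of-ratios scaling, with library weights, and without either or both kidney CD4+ libraries.

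Havcr2 encodes TIM-3, a receptor of terminally differentiated T cells that myeloid cells also carry. It read 425 and 334 in kidney CD8+ cells and 199 and 155 in spleen CD8+ cells, and Cd160, a receptor of the HVEM ligand found on CD8+ T cells and natural killer cells, read 4000 and 2700 in kidney CD8+ cells and 1687 and 1701 in spleen CD8+ cells. Neither pair of groups overlapped. Their log2 fold changes were 1.10 ± 0.54 (SE) for Havcr2, with an adjusted p of 0.534 by limma, and 0.96 ± 0.56 (SE) for Cd160, with an adjusted p of 0.624. Havcr2 passed in 0 of the 21 alternatives. Cd160 passed in 3, those without 1 or both kidney CD4+ libraries.

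Lag3, a receptor of MHC class II related to CD4 in structure, was close to absent from CD8+ cells. It read 4.24 and 7.71 in kidney CD8+ cells, from 5 and 10 reads, and 8.75 and 46.8 in spleen CD8+ cells, from 13 and 49 reads. The kidney libraries were both lower, but the spleen pair differed by more than the gap to the kidney pair (log2 fold change -1.68 ± 1.30 SE, adjusted p = 0.735 by limma). Tox read 505 and 437 in kidney CD8+ cells and 409 and 519 in spleen CD8+ cells. These groups overlapped, and the log2 fold change of 0.03 ± 0.60 (SE, adjusted p = 0.995 by limma) turned to -0.31 when libraries were scaled on T cell core genes and to -0.00498 with TMM scaling. With the compared libraries alone its SE was 0.20, and it passed in 0 of the 21 alternatives.

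**Figure D1:**
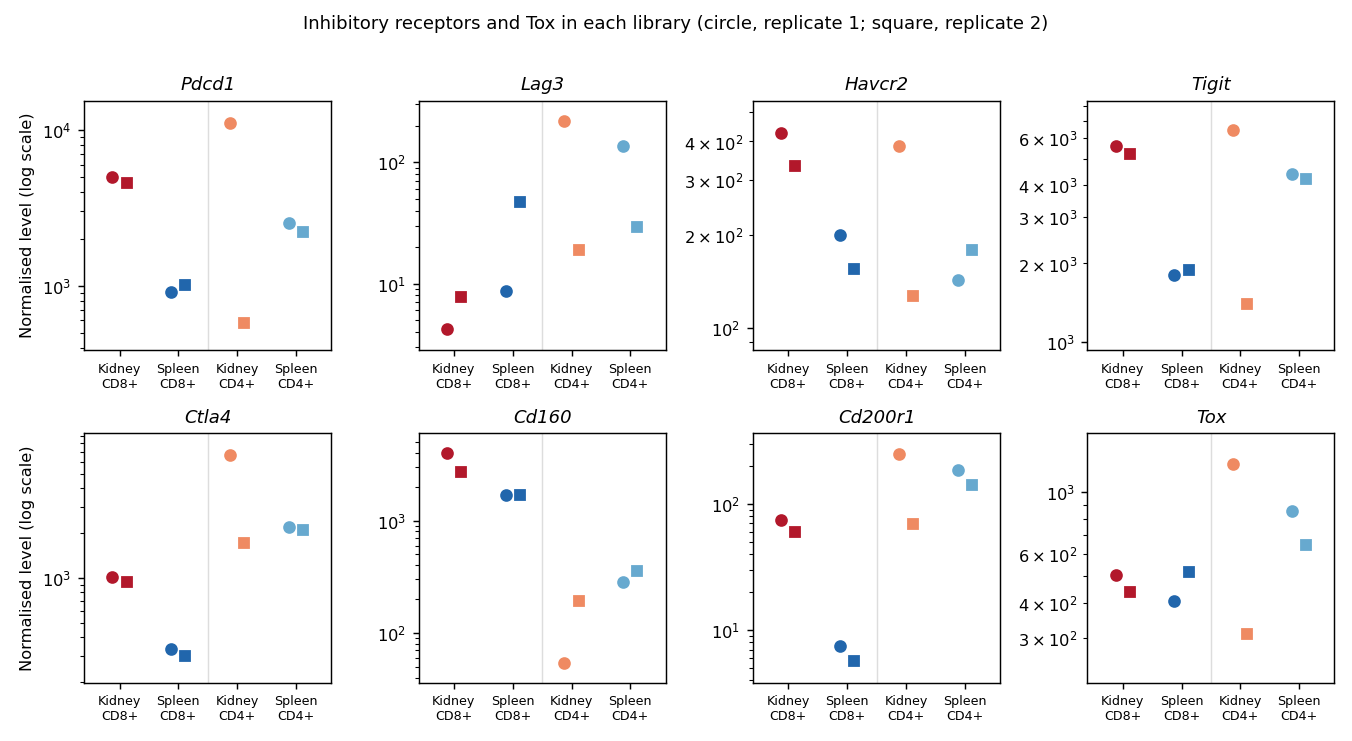
Normalised level of each of the 8 genes (log10 axis) in each library, with circles for replicate 1 and squares for replicate 2. In CD8+ cells the kidney points lie above the spleen points for Pdcd1, Tigit, Ctla4, Havcr2, Cd160 and Cd200r1, while the kidney CD4+ points spread widely, from 580 to 11103 for Pdcd1.

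Several marker lists of other cell types differed by organ among CD8+ cells. The 9 macrophage genes in the table, a cell type that carries Havcr2 and Cd200r1, summed to 2391 and 1790 in kidney CD8+ and 844 and 1446 in spleen CD8+ cells. All 8 tested genes of this list had a log2 fold change above 0, with a median of 1.77. Of them 2, C1qa and C1qb, passed as higher in kidney by limma, beside 1.55% of all genes. C1qb read 429 and 356 in kidney CD8+ and 33.0 and 73.5 in spleen CD8+ cells. The 7 dendritic cell genes summed to 3080 and 1879 in kidney CD8+ and 1166 and 1372 in spleen CD8+ cells, with Zbtb46, Cd209a and Siglech at 0 in both groups. The class II genes H2-Aa and H2-Ab1 gave most of these sums. H2-Aa read 2041 and 1213 in kidney CD8+ and 815 and 889 in spleen CD8+ cells. H2-Ab1 read 1013 and 544 in kidney CD8+ and 304 and 453 in spleen CD8+ cells. Regulatory T cell markers, 7 in the list, summed to 3439 and 3547 in kidney CD8+ and 2463 and 2325 in spleen CD8+ cells. Tnfrsf18 gave nearly all of these sums, at 3223 and 3334 in kidney CD8+ and 2351 and 2243 in spleen CD8+ cells. Of the 7 markers 4 had a log2 fold change above 0, with a median of 0.51. Nrp1 alone passed as higher in kidney by limma, at 56.0 and 50.1 in kidney CD8+ and 12.1 and 8.59 in spleen CD8+ cells. The defining regulatory gene Foxp3 went the other way at a near-zero level, 2.55 and 5.40 in kidney CD8+ and 10.8 and 11.5 in spleen CD8+ cells. Natural killer markers, 7 in the table, summed to 9579 and 8329 in kidney CD8+ and 8276 and 7850 in spleen CD8+ cells. Gzma gave most of these sums, at 7534 and 7103 in kidney CD8+ and 7914 and 7445 in spleen CD8+ cells. Of the 7 markers 5 had a log2 fold change above 0, with a median of 1.42. Fcer1g passed as higher in kidney by limma, at 1125 and 455 in kidney CD8+ and 61.3 and 66.8 in spleen CD8+ cells. Follicular helper markers, 7 in the list, summed to 4910 and 5408 in kidney CD8+ and 3038 and 3137 in spleen CD8+ cells. Icos and Sh2d1a gave nearly all of the follicular helper sum, the median log2 fold change of the 6 tested markers was 0.13, and the defining receptor Cxcr5 was lower in kidney CD8+ cells, at 0.849 and 11.6, against 119 and 180 in spleen CD8+ cells. The part of these lists in the receptor differences was not tested.

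In CD4+ cells, 7 of the 8 genes overlapped between kidney and spleen, and Cd160 was lower in both kidney libraries. Lower levels without overlap were found for 15.6% of all tested genes and higher ones for 16.3%. None of the 8 passed the test by limma (0.959% of all genes), edgeR (0.609%), DESeq2 (3.25%) or with the compared libraries alone (0%), and 1, Cd160, had an unadjusted p below 0.05 (9.11%). The median log2 fold change was -0.10 over the 8 genes and -0.08 over all tested genes.

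The overlap lay in the kidney pair. Pdcd1 read 11103 and 580 in kidney CD4+ replicates 1 and 2, which lie above and below both spleen CD4+ libraries at 2542 and 2205. Tigit read 6450 and 1404 in kidney and 4386 and 4197 in spleen. Ctla4, at 6641 and 1704 in kidney and 2188 and 2107 in spleen, and Tox, at 1261 and 311 in kidney and 856 and 646 in spleen, were placed in the same way. In each of these 4 genes the spleen libraries lay between the kidney libraries.

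Less abundant receptors showed the same placement. Havcr2 read 386 and 127 in kidney CD4+ cells and 143 and 178 in spleen CD4+ cells. Cd200r1 read 250 and 69.7 in kidney and 186 and 140 in spleen, and Lag3 read 221 and 18.7 in kidney and 136 and 29.3 in spleen. The direction of each of these 7 genes therefore depended on which kidney CD4+ library was used.

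Without kidney CD4+ replicate 1, Pdcd1, Tigit and Tox passed as lower in kidney, in a fit in which 21.5% of all genes passed. Without replicate 2, Pdcd1 and Ctla4 passed as higher and Cd160 as lower, beside 2.76% of all genes. In both fits the lone library is assumed to vary like the other groups. The log2 fold change of Pdcd1 lay between -2.03 and 2.23 over the single-library omissions. With all libraries it was 0.10 ± 1.08 (SE, adjusted p = 0.991 by limma). Other log2 fold changes were -0.51 ± 0.62 for Tigit, 0.65 ± 0.57 for Ctla4, 0.47 ± 0.54 for Havcr2, -0.29 ± 0.67 for Cd200r1, 0.04 ± 1.30 for Lag3 and -0.25 ± 0.60 for Tox, each with its SE.

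Cd160 read 54.3 and 195 in kidney CD4+ cells and 285 and 357 in spleen CD4+ cells. Both kidney libraries were lower, with a log2 fold change of -1.62 ± 0.56 (SE, adjusted p = 0.357 by limma, 0.00555 to 0.999 over 20 alternatives). Its antisense neighbour Pdzk1, a scaffold protein of the tubule brush border, read 466 and 357 in kidney CD4+ and 1.66 and 0.863 in spleen CD4+ cells, above Cd160 in both kidney CD4+ libraries. In CD8+ cells Pdzk1 read 200 and 654 in kidney and 4.04 and 4.77 in spleen, below Cd160 in every library. How many reads the shared 68 bases gave to either gene cannot be told from the table.

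Between the kidney CD4+ replicates, 7 of the 8 genes were lower in replicate 2, and Cd160 was higher. The log2 difference, replicate 2 minus replicate 1, was -4.26 for Pdcd1, -3.49 for Lag3, -2.20 for Tigit, -2.02 for Tox, -1.96 for Ctla4, -1.82 for Cd200r1 and -1.60 for Havcr2, against 1.82 for Cd160. The median over the 8 genes was -1.99, beside -0.42 over the 4691 well expressed genes. In the other groups the median of the 8 lay between -0.17 and 0.04. Lag3 also had unlike spleen replicates, with a difference of 2.29 in spleen CD8+ and -2.17 in spleen CD4+ cells. The regulatory gene Foxp3 read 1080 and 340 in kidney CD4+ replicates 1 and 2, while the summed regulatory markers read 12269 and 15475, against 12735 and 11977 in spleen CD4+ cells. Tnfrsf18 gave 9312 and 14174 of these kidney sums. Cd3e, Lck and Lat of the T cell core list were also lower in replicate 2, at the levels given above, and Cd3d was higher.

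**Figure D2:**
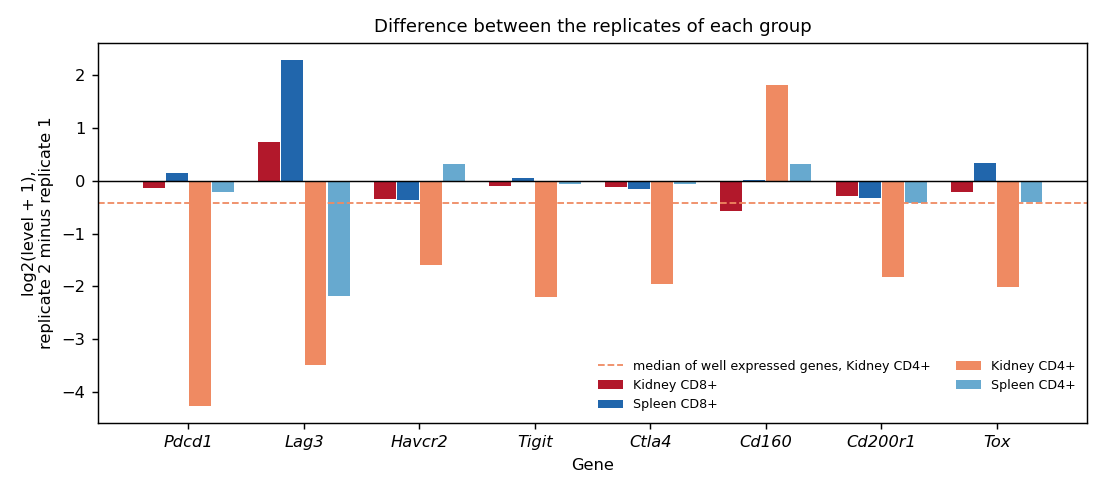
Difference in log2(level + 1) between replicate 2 and replicate 1 for each of the 8 genes, with 1 bar per group, and a dashed line at the median of the 4691 well expressed genes in kidney CD4+ cells (-0.42). In kidney CD4+ cells 7 of the 8 genes lie below 0, at a median of -1.99, and Cd160 lies at 1.82.

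Within the kidney, Cd160 rose in CD8+ cells, and it was the only 1 of the 8 genes to pass between the cell types there, in a comparison in which 0.203% of all genes passed. Its levels of 4000 and 2700 in CD8+ cells and 54.3 and 195 in CD4+ cells gave a log2 fold change of 4.98 ± 0.56 (SE, adjusted p = 0.0120 by limma), 31.6-fold. It was 4.07 without kidney CD4+ replicate 1 and 5.89 without replicate 2. It passed with edgeR as well, as did 0.221% of all genes. On the compared libraries alone the call was lost (adjusted p = 0.782), in a fit in which 0% of all genes passed, and it was also lost without any 1 of the 6 libraries of kidney CD8+, spleen CD8+ and spleen CD4+ cells, with an adjusted p of up to 0.266. It held in 13 of the 20 alternatives, and the direction held in all 20. Natural killer markers summed to 9579 and 8329 in kidney CD8+ and 1596 and 2712 in kidney CD4+ cells, and Gzma, a granzyme gene that CD8+ T cells also express, gave 7534 and 7103 of the CD8+ sums. Only 2 of these 7 markers had a log2 fold change above 0, with a median of -1.08.

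Ctla4 and Lag3 were lower in kidney CD8+ than in kidney CD4+ cells in every pairing of libraries. Lower levels without overlap were found for 14.1% of all genes, and higher ones for 13.8%. Ctla4, at 1020 and 944 in CD8+ and 6641 and 1704 in CD4+ cells, had a log2 fold change of -1.78 ± 0.57 (SE, adjusted p = 0.400 by limma). Lag3, at 4.24 and 7.71 in CD8+ and 221 and 18.7 in CD4+ cells, had -3.29 ± 1.30 (SE, adjusted p = 0.534 by limma). Both passed with DESeq2, as did 1.98% of all genes, with adjusted p of 0.0184 and 0.0374, within ranges over 20 alternatives of 3.17e-04 to 1 for Ctla4 and 0.0326 to 1 for Lag3. Pdcd1, Tigit, Havcr2, Cd200r1 and Tox overlapped between the cell types. The median log2 fold change of the 8 was 0.17, beside 0.03 over all genes. At an unadjusted p below 0.05 there were 3 of the 8, beside 8.51% of all genes.

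Spleen CD8+ cells had lower levels than spleen CD4+ cells of Pdcd1, Tigit, Ctla4, Cd200r1 and Tox, and a higher level of Cd160, all without overlap. Such lower levels were found for 26% of all genes and higher ones for 19.8%. The median log2 fold change of the 8 was -1.26, beside -0.05 over all genes. Cd200r1 fell, at 7.41 and 5.73 in CD8+ and 186 and 140 in CD4+ cells (log2 fold change -4.43 ± 0.67 SE, adjusted p = 0.0417 by limma), and was the only 1 of the 8 to pass, beside 0.36% of all genes. On the compared libraries alone the call was lost (adjusted p = 0.0596), as it was with no filter on low levels, with the replicate number as a block and without any 1 of the 6 libraries other than kidney CD4+, with an adjusted p of up to 0.571. It held in 12 of the 21 alternatives.

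The CTLA-4 gene differed most clearly after that. Ctla4 read 333 and 298 in spleen CD8+ and 2188 and 2107 in spleen CD4+ cells, a log2 fold change of -2.76 ± 0.57 (SE, adjusted p = 0.118 by limma, 1.87e-05 to 0.889 over 21 alternatives). Cd160 was higher in CD8+ cells, 1687 and 1701 against 285 and 357, by 2.40 ± 0.56 (SE, adjusted p = 0.179 by limma, 1.17e-04 to 1 over 21 alternatives). Tigit, at 1807 and 1887 in CD8+ and 4386 and 4197 in CD4+ cells, had -1.22 ± 0.62 (SE), and Pdcd1, at 906 and 1011 in CD8+ and 2542 and 2205 in CD4+ cells, had -1.31 ± 1.08 (SE). With the compared libraries alone, Tigit, Ctla4 and Cd160 passed, and 1.31% of all genes did. With the kidney CD4+ pair left out, Pdcd1, Tigit, Ctla4, Cd160 and Cd200r1 passed, and 3% of all genes did. DESeq2 called 3 of the 8, Ctla4, Cd160 and Cd200r1, beside 2.16% of all genes, and edgeR called Cd200r1, beside 0.415%. At an unadjusted p below 0.05 in the fit over all libraries there were 3 of the 8, beside 6.43% of all genes.

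Regulatory T cell markers moved with the cell type in spleen, with sums of 2463 and 2325 in CD8+ and 12735 and 11977 in CD4+ cells. Follicular helper markers summed to 3038 and 3137 in spleen CD8+ and 6393 and 7646 in spleen CD4+ cells. Natural killer markers summed to 8276 and 7850 in spleen CD8+ and 766 and 781 in spleen CD4+ cells, of which the granzyme gene Gzma, which CD8+ T cells also express, gave 7914 and 7445 in CD8+ cells. Only 3 of the 7 markers had a log2 fold change above 0, with a median of -1.54, and Tyrobp was lower in CD8+ cells at 69.4 and 88.8, against 267 and 234 in CD4+ cells. Foxp3 itself read 10.8 and 11.5 in spleen CD8+ and 1665 and 1009 in spleen CD4+ cells. The part of these lists in the levels of Ctla4, Tigit, Pdcd1 and Cd160 was not tested.

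**Figure D3:**
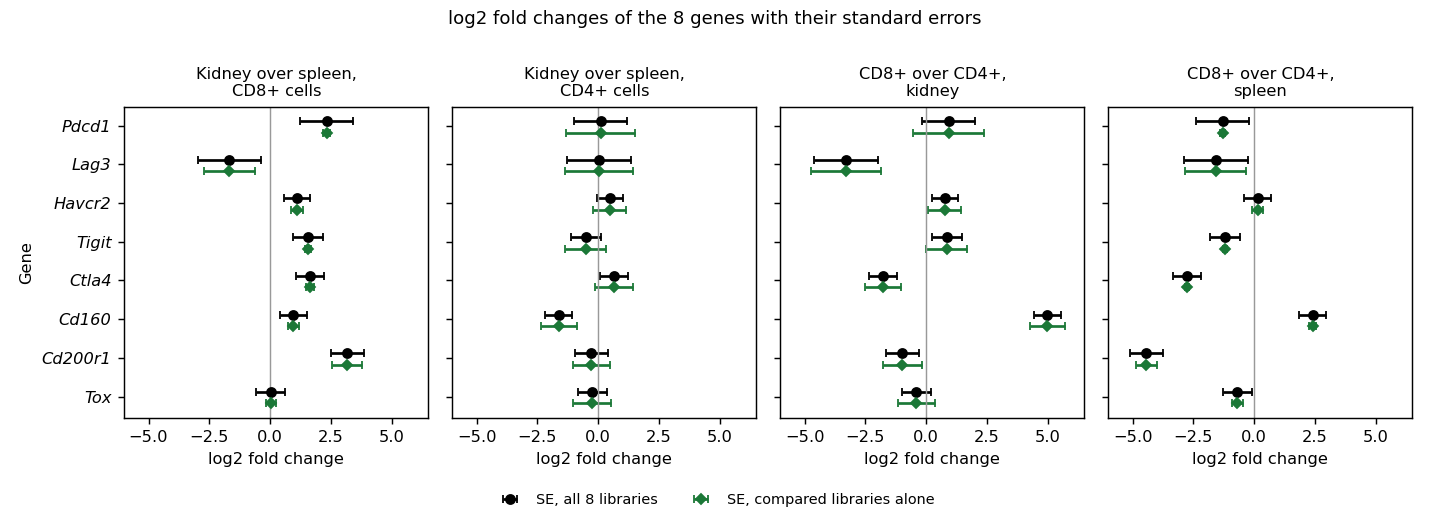
Log2 fold change of each of the 8 genes in the 4 comparisons between groups, with error bars of 1 SE from the fit over all 8 libraries (circles) and from the compared libraries alone (diamonds). In CD8+ cells, 6 receptors lie above 0 for kidney against spleen, from 0.96 for Cd160 to 3.17 for Cd200r1, while in CD4+ cells 7 of the 8 genes lie between -0.51 for Tigit and 0.65 for Ctla4.

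The organ difference was then compared between the cell types in 1 test, the difference in CD8+ cells minus that in CD4+ cells. No gene of the table passed this test by limma (0%), 0 by edgeR (0%) and 12 by DESeq2 (0.111%), and 362 genes, 3.34%, had an unadjusted p below 0.05. Among the 8 genes, 3 did, Cd200r1 with 3.46 ± 0.95 (SE, unadjusted p = 0.0060 by limma), Cd160 with 2.58 ± 0.80 (unadjusted p = 0.0109) and Tigit with 2.06 ± 0.88 (unadjusted p = 0.0446), each with an adjusted p of 0.999. The median over the 8 was 1.53, beside 0.11 over all genes. Without kidney CD4+ replicate 1, Pdcd1, Tigit, Ctla4, Cd160 and Cd200r1 passed, beside 6.87% of all genes, and without replicate 2, 1 of the 8 passed, Cd160, beside 0.0738%.

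The groups ranked differently from gene to gene. Cd160 was ordered by cell type, with mean levels of 3350 ± 920 (SD, n = 2) in kidney CD8+, 1694 ± 9.83 in spleen CD8+, 321 ± 50.7 in spleen CD4+ and 124 ± 99.2 in kidney CD4+ cells, and no neighbours in that order overlapped. Ctla4, Tox, Lag3 and Cd200r1 had their highest means in the 2 CD4+ groups. Kidney CD4+ and spleen CD4+ cells overlapped for each of these genes, as did kidney CD8+ and spleen CD8+ cells for Tox. Havcr2 had its highest mean in kidney CD8+ cells, 380 ± 64.7, though every neighbouring pair of groups overlapped. Tigit had its highest mean in kidney CD8+ cells, 5417 ± 266, without overlap with spleen CD4+ cells at 4291 ± 133, although kidney CD4+ replicate 1 was higher still at 6450. The lowest mean of Pdcd1, Tigit, Ctla4, Cd200r1 and Tox was in spleen CD8+ cells, and that of Lag3 in kidney CD8+ cells.

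Levels can be compared between genes per kilobase of the longest annotated transcript. In kidney CD8+ cells Tigit had 5625 ± 276 (SD, n = 2) units of level per kilobase, Pdcd1 2487 ± 167, Cd160 1293 ± 355 and Ctla4 508 ± 27.8. Havcr2 had 139 ± 23.8 and Tox 119 ± 12.1, and Cd200r1 and Lag3 were scarce at 24.2 ± 3.50 and 2.99 ± 1.22. Tigit was thus the most abundant of the 8 transcripts there per length, and it was also first in spleen CD8+ cells at 1918 ± 58.9 and in spleen CD4+ cells at 4456 ± 138. In kidney CD4+ cells Tigit had 6698 and 1458 units per kilobase in replicates 1 and 2, above Pdcd1 with 5759 and 301 in the same libraries.

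**Figure D4:**
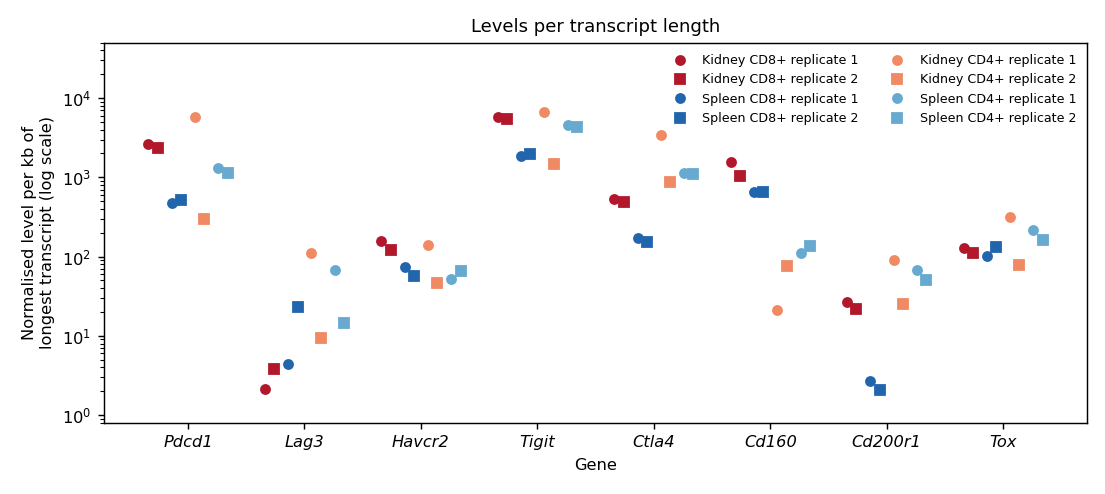
Level per kilobase of the longest transcript (log10 axis) of the 8 genes in each library of the 4 groups. Tigit is at the top in kidney CD8+ cells, with a mean of 5625, and Lag3 at the bottom with 2.99.

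Other genes of the same pathways were read from 5 lists. Of the ligand genes 13 of 17 were tested, most of which antigen-presenting cells express. In CD8+ cells none passed between organs by limma over all 8 libraries, and the median log2 fold change was 0.98. Lgals3, which encodes the LAG-3 ligand galectin-3, read 3221 and 2387 in kidney and 733 and 902 in spleen (adjusted p = 0.0516 by limma). It passed with the compared libraries alone, as did 1.65% of all genes, and with DESeq2 (4.48%), but not with edgeR (0.913%). Cd86, a ligand of CTLA-4 and CD28, read 479 and 358 in kidney CD8+ and 119 and 141 in spleen CD8+ cells (adjusted p = 0.116). At an unadjusted p below 0.05 there were 6 of the 13, beside 10.6% of all genes. In CD4+ cells 3 of the 13 rose in kidney, beside 0.959% of all genes that passed, namely the class II genes H2-Aa (7394 and 7220 in kidney, 1177 and 1047 in spleen), H2-Ab1 (4507 and 2835 in kidney, 553 and 317 in spleen) and H2-Eb1 (4640 and 3158 in kidney, 553 and 592 in spleen), whose products bind LAG-3. Their adjusted p by limma was 0.0128, 0.0241 and 0.0197 in that order. Each call was lost with the compared libraries alone and without any 1 of the 4 spleen libraries, with an adjusted p of up to 0.299. The calls of H2-Ab1 and H2-Eb1 were also lost with library weights. Macrophage markers summed to 6840 and 6538 in kidney CD4+ and 1685 and 2271 in spleen CD4+ cells. Dendritic markers summed to 12012 and 10114 in kidney CD4+ and 1751 and 1407 in spleen CD4+ cells. H2-Aa and H2-Ab1 are 2 of these markers and gave nearly all of the sums, so the sums repeat the class II values above. None of the 13 passed between the cell types in either organ by limma over all 8 libraries. With the compared libraries alone H2-Eb1 passed as lower in spleen CD8+ than in spleen CD4+ cells, beside 1.31% of all genes.

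The list of 4 activating receptors held Cd28, Icos, Cd226 and Cd4. In CD8+ cells 1 of them rose in kidney and 0 fell, beside 1.55% of all genes that passed. It was Icos, a co-stimulatory relative of CD28 and the neighbour of Ctla4 on chromosome 1, which read 2183 and 2843 in kidney and 476 and 586 in spleen (log2 fold change 2.24, adjusted p = 0.0395 by limma). Icos also fell in spleen CD8+ against spleen CD4+ cells, which read 2998 and 3577 (adjusted p = 0.0489 by limma), beside 0.36% of all genes that passed. The first call held in 12 and the second in 11 of 21 alternatives, and each was lost without any 1 of the 6 libraries other than kidney CD4+, with edgeR and with the replicate number as a block. The first was also lost with scaling on T cell core genes, and the second with a pseudocount of 0.5 and with no filter on low levels. Cd226, the activating partner of Tigit, read 546 and 714 in kidney CD8+ and 396 and 464 in spleen CD8+ cells and did not pass. Cd4, which binds class II as LAG-3 does, differed between the cell types by the sort itself. In CD4+ cells 0 of the 4 passed between organs.

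Of 16 further inhibitory receptor genes 12 were tested, and 0 passed between organs in CD8+ or in CD4+ cells. Their median log2 fold change in CD8+ cells was 0.0041. Klrc1, a chain of the NKG2A receptor, rose in CD8+ against CD4+ cells of both organs, at 5903 and 5835 in kidney CD8+ and 526 and 284 in kidney CD4+ cells (15.1-fold, adjusted p = 0.0075 by limma), and at 2201 and 2276 in spleen CD8+ and 157 and 190 in spleen CD4+ cells (12.9-fold, adjusted p = 0.0073). Between organs in CD8+ cells Klrc1 had an unadjusted p below 0.05 by limma and passed in 6 of 21 alternatives. Among these was the fit on the compared libraries alone, in which 1.65% of all genes passed. Cd244, which encodes the SLAM family receptor 2B4, rose in kidney CD8+ cells, at 355 and 222, against 0 and 3.12 in kidney CD4+ cells (adjusted p = 0.0185 by limma). Between the cell types, 0.203% of all genes passed in kidney and 0.36% in spleen. With the compared libraries alone both kidney calls were lost (adjusted p = 0.782), and without either spleen CD4+ library these 3 calls were lost. Cd244 also failed without any 1 CD8+ library, with library weights and with the replicate number as a block, Klrc1 in kidney without either kidney CD8+ library or spleen CD8+ replicate 1, and Klrc1 in spleen without either spleen CD8+ library or kidney CD8+ replicate 1. Btla, the other HVEM receptor, read 0 and 26.2 in kidney CD8+ and 56.6 and 90.7 in spleen CD8+ cells, and Lair1, a collagen receptor, 312 and 303 in kidney CD8+ and 737 and 630 in spleen CD8+ cells. Neither passed, though both were lower in both kidney libraries.

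Signalling adaptors and phosphatases, 17 of 18 tested, had 0 genes that passed in any of the 5 comparisons. Their median log2 fold change between organs in CD8+ cells was -0.0025, with 0 genes at an unadjusted p below 0.05. Inpp5d, which encodes the phosphatase SHIP-1, read 269 and 387 in kidney CD8+ and 133 and 223 in spleen CD8+ cells without passing. Lrba, needed in human cells to spare CTLA-4 from degradation, read 96.8 and 56.3 in kidney CD8+ and 36.4 and 58.2 in spleen CD8+ cells. These groups overlapped, and Pag1, an adaptor that recruits the kinase Csk, overlapped as well.

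Transcription factors named with exhaustion, 19 of 21 tested, included 2 that rose and 1 that fell in kidney CD8+ against spleen CD8+ cells, beside 1.55% of all genes that passed. Their median was 1.04 on the log2 scale, beside 0 over all genes. Nr4a2 read 424 and 411 in kidney and 36.4 and 41.1 in spleen (10.6-fold, adjusted p = 0.0136 by limma). Its relative Nr4a3 read 473 and 443 in kidney and 22.2 and 3.82 in spleen (43.3-fold, adjusted p = 0.0130). Its log2 fold change of 5.44 became 6.57 without spleen CD8+ replicate 1 and 4.30 without spleen CD8+ replicate 2. Both are orphan nuclear receptors induced at once by antigen receptor signals. Tcf7, which encodes TCF-1, the factor of memory-like and precursor exhausted cells, read 337 and 475 in kidney and 1764 and 2058 in spleen, 4.75-fold lower (adjusted p = 0.0284). The calls held in 17 of 21 alternatives for Nr4a2 and Nr4a3 and in 14 for Tcf7. Each was lost without either kidney CD8+ library or spleen CD8+ replicate 2, Nr4a2 and Tcf7 also without spleen CD8+ replicate 1, Tcf7 without either spleen CD4+ library and with the replicate number as a block, and Nr4a3 with the compared libraries alone. The highest adjusted p over the 21 alternatives was 0.182 for Nr4a2, 0.125 for Nr4a3 and 0.301 for Tcf7.

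In CD4+ cells 0 of the 19 factors passed between organs. In spleen CD8+ against spleen CD4+ cells 2 fell, Maf and Ikzf2, beside 0.36% of all genes that passed. Maf read 95.6 and 72.6 in CD8+ and 1438 and 1406 in CD4+ cells (adjusted p = 0.0074 by limma). Ikzf2 read 62.6 and 50.6 in CD8+ and 801 and 429 in CD4+ cells (adjusted p = 0.0251 by limma). Maf encodes a factor of follicular helper and interleukin-10-producing T cells, and Ikzf2 encodes Helios, which also stands in the regulatory marker list. Without any 1 of the 4 spleen libraries neither gene passed, Ikzf2 also failed without either kidney CD8+ library and with the compared libraries alone, and the highest adjusted p over the alternatives was 0.218 for Maf and 0.378 for Ikzf2. In kidney CD8+ against kidney CD4+ cells 0 of the 19 passed.

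**Figure D5:**
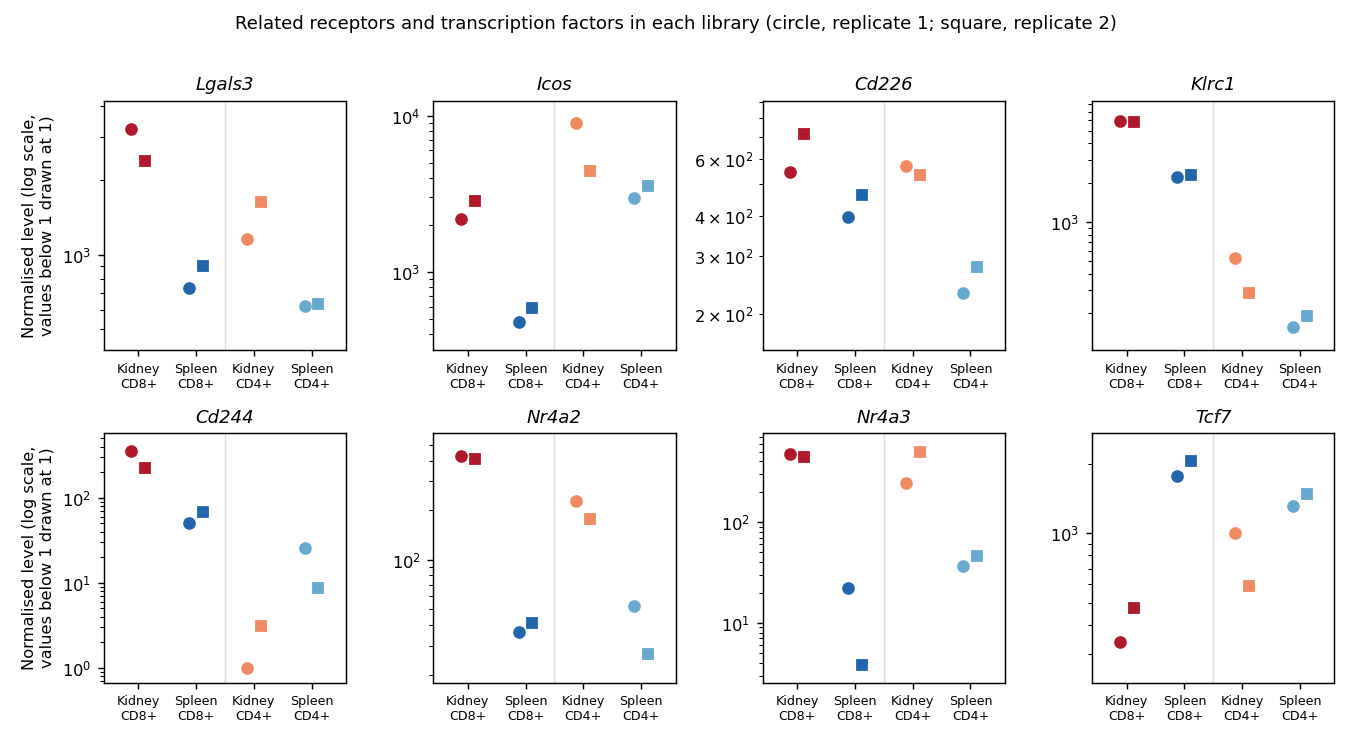
Normalised level (log10 axis, values below 1 drawn at 1) of 8 related genes of the pathway lists, Lgals3, Icos, Cd226, Klrc1, Cd244, Nr4a2, Nr4a3 and Tcf7, in each library, with circles for replicate 1 and squares for replicate 2. Nr4a2 and Nr4a3 lie above their spleen CD8+ points in kidney CD8+ cells and Tcf7 below, and Klrc1 is higher in CD8+ cells of both organs.

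The genes whose profile over the 8 libraries was most like that of each of the 8 were ranked by the root mean square difference of centred log2 levels, among 4529 or 4530 genes with a mean level of at least 100. Pdcd1 was closest to Itgae, which encodes the CD103 integrin chain (0.45), Bnip3 (0.46) and Plscr1 (0.50), where the profile of Pdcd1 itself had a root mean square of 1.35. Tigit was closest to Cers4 (0.21), Entpd1, which encodes CD39 (0.28), and the chemokine receptor Cxcr3 (0.29). Ctla4 was closest to Dusp14 (0.27), Icos (0.41) and Ctsh (0.46). The differences for these genes are small beside the profiles, and all profiles share the unlike kidney CD4+ pair.

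Cd160 was closest to Rcn3 (0.57), Cd7 (0.58) and Wdr95 (0.73), all of them high in CD8+ cells of both organs. Tox was closest to Nt5dc1 (0.15), Vcp (0.18) and Tap1 (0.18), and Havcr2 to Abca2 (0.23), Tgfbr2 (0.26) and Rab19 (0.27). Cd200r1 was closest to Lgmn (0.64), Ctla4 (0.68) and Nrn1 (0.71). Lag3 had the least close neighbours, Alkbh6 (0.74), Aup1 (0.75) and Nfkbia (0.79).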

How the data were processed

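RNA was sequenced from 8 libraries of sorted T cells, prepared with a micro-scale column kit and the SMART-Seq v4 kit, per the labels' protocols. The series text names alignment to mm9 with STAR and Bowtie, and the submitters' processing notes name STAR 2.5.3 and TopHat2 2.1.0. Not given in the sources used here are the counting tool, the annotation and the normalisation. Values deposited by the authors are a normalised signal, 1 value for each gene in each library. The deposited signal divided by a step per library gave whole reads for 100% of values (tolerance 1e-06), so it is read counts scaled by 1 factor per library. All 8 columns were used.

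Tests used limma 3.58.1 (R 4.3.3) on log2(level + 1) values (cell means over all 8 libraries, intensity trend, 2-sided, 8.48 total degrees of freedom), for genes that reached a level of 10 in 2 or more libraries. Benjamini-Hochberg adjustment ran over all 10845 tested genes in each of 5 comparisons, and a gene passed at an adjusted p below 0.05. The log2(level + 1) scale understates the change of low genes. Because the shared spread includes the unlike kidney CD4+ pair, fits on the compared libraries alone are given where they changed a call of the 8 genes. edgeR 4.0.16 and DESeq2 1.42.0 were run on the recovered reads as alternatives. In all 20 alternatives were planned and 1, without the kidney CD4+ pair, was added after seeing the data. The limma step was tested on simulated data.

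All 8 genes are named in every comparison. Of each pathway list the text names genes called in any comparison and the 3 with the smallest unadjusted p for CD8+ cells between organs, and for each of the 8 genes the 3 with the most similar profile. Foxp3, Pdzk1 and single markers of the cell type lists were named besides, after their values were seen. The genes, the pathway lists and the marker lists (T cell core, regulatory T, follicular helper T, natural killer, macrophage, dendritic, B cell, neutrophil, erythroid, proximal tubule) were chosen with earlier results of these data known. Ikzf2, Icos, H2-Aa and H2-Ab1 stand in a pathway and a marker list. Promoter sequences are from RefSeq. Positions and transcript lengths are from a gene annotation of mm9.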

Additional observations from a re-analysis of the deposited data

Results flagged for a closer look

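Among the 8 genes and the named genes of the pathway lists, 4 had no overlap between kidney and spleen in either cell type and opposite directions. Among all tested genes, 26.7% were higher and 24.4% lower in kidney without overlap in CD8+ cells. In CD4+ cells 16.3% were higher and 15.6% lower. How many of all genes had opposite directions was not counted, so the 4 are not shown to be unusual. Cd160 was higher in kidney among CD8+ cells and lower in kidney among CD4+ cells, and the difference of the log2 fold changes, CD8+ minus CD4+, was 2.58 (unadjusted p = 0.0109 by limma). Cd244, higher in kidney CD8+ and lower in kidney CD4+ cells than in spleen, gave 5.22 (unadjusted p = 0.00267), though kidney CD4+ cells had 0 and 3.12 units of level, so that this size depends on the pseudocount. Ikzf2 gave 2.18 (unadjusted p = 0.00770), with the same directions. Btla was lower in kidney CD8+ and higher in kidney CD4+ cells and gave -4.36 (unadjusted p = 0.0427). It read 0 in kidney CD8+ replicate 1, so this size depends on the pseudocount as well. The adjusted p of each was 0.999, so none of these differences passed its test.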

How the results depend on the processing

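With 2 libraries a group, and 1 group with unlike libraries, the number of the 8 genes that passed changed with the libraries, scaling, weights, filter and test used. In kidney against spleen CD8+ cells it was 0 over all libraries (1.55% of all genes) and 3 with the compared libraries alone (1.65%). It was 1 with DESeq2 (4.48%) and 5 without the kidney CD4+ pair (6.87%). It was also 1 with median-of-ratios scaling and 4 with library weights. In kidney against spleen CD4+ cells it was 0 over all libraries (0.959%). In kidney CD8+ against CD4+ cells it was 1 (0.203%), 3 with DESeq2 (1.98%) and 0 with the compared libraries alone (0%). In spleen it was 1 (0.36%), 3 with DESeq2 (2.16%), 3 with the compared libraries alone (1.31%) and 5 without the kidney CD4+ pair (3%). There it was also 0 with no filter on low levels, 2 with scaling on T cell core genes and 5 with library weights. For the difference of the organ effects it was 0 (0%). Leaving out single libraries changed the number in each of the 5 comparisons. The share of all genes is not given here for the scaling, weight, filter and single-library settings. Their counts are therefore no result about the 8 genes. The cause of these changes was not tested.

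With the replicate number as a block the counts were 0, 0, 1, 0 and 0 in the same order, so the call of Cd200r1 in spleen was lost and no other call of the 8 genes changed. Among the named genes of the pathway lists, the block also ended both calls of Icos and those of Cd244 in kidney and Tcf7. Replicate 1 deviations correlated between groups at -0.15 to 0.06 over genes, and the labels share only the numbers, so the libraries were not paired.

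All 7 receptors kept their direction between organs in CD8+ cells under all 21 alternatives. The log2 fold change of Tox changed sign, to -0.0051 with edgeR, -0.00498 with TMM scaling and -0.31 with scaling on T cell core genes in CD8+ cells, to 0.0052 with edgeR and 0.0146 with DESeq2 in CD4+ cells, and to -0.0103 with edgeR and -0.20 with scaling on T cell core genes for the difference of the organ effects. Pdcd1 in kidney CD8+ against CD4+ cells changed to -0.17 with edgeR and -0.12 with DESeq2. With single libraries left out, the ranges that crossed 0 were, for kidney against spleen in CD4+ cells, -2.03 to 2.23 for Pdcd1, -1.71 to 1.78 for Lag3, -0.33 to 1.27 for Havcr2, -1.61 to 0.59 for Tigit, -0.33 to 1.63 for Ctla4, -1.20 to 0.63 for Cd200r1 and -1.25 to 0.76 for Tox, and in CD8+ cells -0.14 to 0.20 for Tox. For CD8+ against CD4+ cells in kidney they were -1.21 to 3.04 for Pdcd1, -0.036 to 1.56 for Havcr2, -0.25 to 1.95 for Tigit and -1.42 to 0.59 for Tox, and in spleen -0.043 to 0.32 for Havcr2. For the difference of the organ effects they were -3.46 to 0.031 for Lag3, -0.17 to 1.43 for Havcr2 and -0.73 to 1.28 for Tox. Scaling on T cell core genes moved the median of all genes to -0.33 in CD8+ cells between organs and -0.26 between cell types in kidney, against 0 and 0.03 with the deposited scaling. Depth limits Lag3 and Cd200r1 in CD8+ cells, which rest on 5 to 87 reads a library.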
